A study of Rattus norvegicus with 6 samples.

Results

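The genes described here encode the proteins of the mitochondrial ribosome and of the machinery that brings proteins into mitochondria. They were taken as every probe set with 1 annotated gene symbol that begins with Mrpl, Mrps, Timm or Tomm followed by a digit, which gave 129 of 31042 probe sets and 96 of 14218 genes. Of these, 58 probe sets belonged to 46 Mrpl genes, 39 to 27 Mrps genes, 19 to 14 Timm genes and 13 to 9 Tomm genes. Probe sets in the lowest 30% by mean signal were not tested, so 124 of the 129 remained, and each of the 96 genes kept at least 1. The 5 probe sets left out (1 each of Mrpl37, Mrps18c, Mrps22, Mrps26 and Timm44) had signals between 0.3 and 12.8.

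Cultured rat aortic smooth muscle cells were compared in 2 groups: 3 cultures that fluid flowed over, in a parallel-plate chamber, at a shear stress of 14 dyn/cm2 that lasted 24 h, and 3 static cultures. All were confluent cells of passage 3 to 5, with no other treatment or genetic change named, expanded in medium with 10% serum and then held in medium with 0.1% albumin for 24 h before the experiment. Each sheared culture shared a pairing number with 1 static culture, and the labels do not say what a pair had in common, or that cultures came from different animals, so the p-values cover the spread among these cultures, part of which may be technical. Any other difference between the flow chamber and a static culture goes with the groups.

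A mitochondrion holds its own ribosome, which translates the few membrane subunits of the respiratory chain that mitochondrial DNA encodes. Its RNA is mitochondrial, but all of its proteins are encoded in the nucleus, made in the cytosol and imported, as are nearly all other mitochondrial proteins. Import runs through the TOM complex of the outer membrane and then, by the kind of precursor, through the small TIM chaperones of the intermembrane space to the TIM22 complex, or through the TIM23 complex into the matrix.

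Signals are MAS5 intensities on a linear scale, and differences are shear minus static on the log2(signal + 16) scale, which understates changes of dim probe sets. A probe set "rose" or "fell" where limma's Benjamini-Hochberg adjusted p over all 21729 probe sets tested was below 0.05. Median signal per array was 17.3 to 18.9 in sheared and 21.1 to 22.6 in static cultures. Arrays correlated by 0.980 to 0.993 among sheared, by 0.987 to 0.991 among static and by 0.882 to 0.906 across the groups. Shear array 1 stood apart from the other sheared arrays on the second principal component, which held 6.28% of the variance. Of 8 smooth muscle markers, Acta2 and Tagln were the brightest (mean signal 836 and 2815 in sheared, 1811 and 2684 in static cultures). Acta2 was among the 5 that fell, as were Myh11 (52.6 in sheared, 128 in static cultures) and Lmod1 (6.10 in sheared, 72.4 in static cultures). Des was dim, at 17.2 in sheared and 16.8 in static cultures. Endothelial markers summed to 22.4 to 34.7 in sheared and 31.6 to 46.3 in static cultures, with 6 of 7 below the filter and Pecam1 at 3.47 in sheared and 3.73 in static cultures on average. Leukocyte markers summed to 137 to 177 in sheared and 195 to 248 in static cultures, with Ptprc at 1.87 in sheared and 1.43 in static cultures on average. Of the 4 leukocyte markers tested, Cd14 fell (108 in sheared, 182 in static cultures, adjusted p = 0.00096) and made up most of the sum, and Cd68 rose (25.8 in sheared, 10.1 in static cultures, adjusted p = 0.0037). Fibroblast markers summed to 4339 to 7325 in sheared and 5328 to 7767 in static cultures, with the lowest sum of each group in pair 1, and 2 of 8 rose while 4 fell. The brightest of them were Lum (2889 in sheared, 2494 in static cultures) and Dcn (2350 in sheared, 1768 in static cultures). The 3′ over 5′ signal of beta-actin, as a log2 ratio, was 0.393 ± 0.028 in sheared and 0.255 ± 0.036 in static cultures (SD, n = 3; exact permutation p = 0.1, two-sided, the smallest possible). That of Gapdh was 0.156 ± 0.0062 in sheared and 0.166 ± 0.0097 in static cultures (SD, n = 3; exact permutation p = 0.3). The part of these differences in the results below was not tested.

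Under shear, the mitochondrial ribosome and import genes did not move as one block. Among the 124 probe sets tested 73 passed, 32 risen and 41 fallen, against a background of 52.8% called, 24.3% risen and 28.5% fallen, over all probe sets tested. The share of risen members was 25.8% and of fallen members 33.1%, near that background. Without pair 1, whose shear array stood apart, 36 rose and 45 fell, without pair 2 22 rose and 26 fell, and without pair 3 24 rose and 21 fell. Over all 21729 probe sets tested, 13009, 8771 and 8441 were called in these fits, in that order. The sheared arrays lay wholly above the static ones for 37 members and wholly below for 50, against a background of 27.1% and 32.9% of probe sets. In bulk cultures, a smaller share of cells with a transcript and less of it per cell cannot be told apart.

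Rises outnumbered falls among the import genes, and falls outnumbered rises among the ribosome genes only without median centring. Of 31 import probe sets 12 rose and 5 fell, with a median difference of 0.03. Of 93 ribosome probe sets 20 rose and 36 fell, with a median of -0.14. The median over all probe sets tested was -0.07. By gene, with the brightest probe set standing for each, 8 of 23 import genes rose and 3 fell, and 19 of 73 ribosome genes rose and 27 fell, against a background of 27.8% risen and 30.1% fallen among all 11248 genes tested. The difference between the 2 groups of genes was not tested. After median centring the median of all probe sets was 0.08 instead of -0.07, the import median 0.18 and the ribosome median 0.01, and 14 import probe sets rose and 2 fell while 25 ribosome probe sets rose and 24 fell. By gene 10 import genes then rose and 1 fell, and 23 ribosome genes rose and 19 fell. Of all 11248 genes 3934 then rose and 2606 fell. Both the sign of the ribosome median and the balance of the ribosome calls thus turned with median centring. They did not turn after quantile normalization, where 20 ribosome probe sets rose and 34 fell, with a median of -0.13. Rises made up 43.8% of the members' calls and 46.1% of all calls, and 60.0% and 59.1% after median centring. Minus the median of all probe sets, the import median was 0.10 and the ribosome median -0.07, both with and without median centring. After quantile normalization these were 0.09 and -0.15. The import medians in pairs 1 to 3 were 0.04, 0.08 and 0.08, and the ribosome medians were -0.09, -0.11 and -0.18.

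The largest rises among all members were those of Tomm70 and Timm10. Tomm70, the outer membrane receptor that takes carrier precursors from cytosolic Hsp70 and Hsp90, had signals of 1729.7, 2169 and 2050.0 in sheared cultures 1 to 3, against 748, 617 and 684 in static cultures 1 to 3. Every sheared culture was far above every static one, and shear culture 1 was the lowest of the sheared. The difference was 1.51 (95% interval 1.26 to 1.77, adjusted p = 2.5e-05). A second Tomm70 probe set gave 1.20 (1.00 to 1.41, adjusted p = 2.6e-05), from means of 759 ± 41.7 in sheared and 321 ± 10.9 in static cultures (SD, n = 3).

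Timm10, which pairs with Timm9 in the chaperone ring that escorts hydrophobic precursors across the intermembrane space, had 652, 734 and 756 in sheared cultures, against 235, 246 and 273 in static cultures. The groups were separated by a wide gap and the pairs hardly differed (1.41, 1.52 and 1.42 on the log2 scale). The difference was 1.45 (1.25 to 1.65, adjusted p = 1.1e-05). Its partner Timm9 had 362, 384 and 366 in sheared cultures, against 205, 172 and 222 in static cultures. This was a smaller rise than that of Timm10, 0.85 (0.59 to 1.11, adjusted p = 0.00046), again without overlap.

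**Figure D1:**
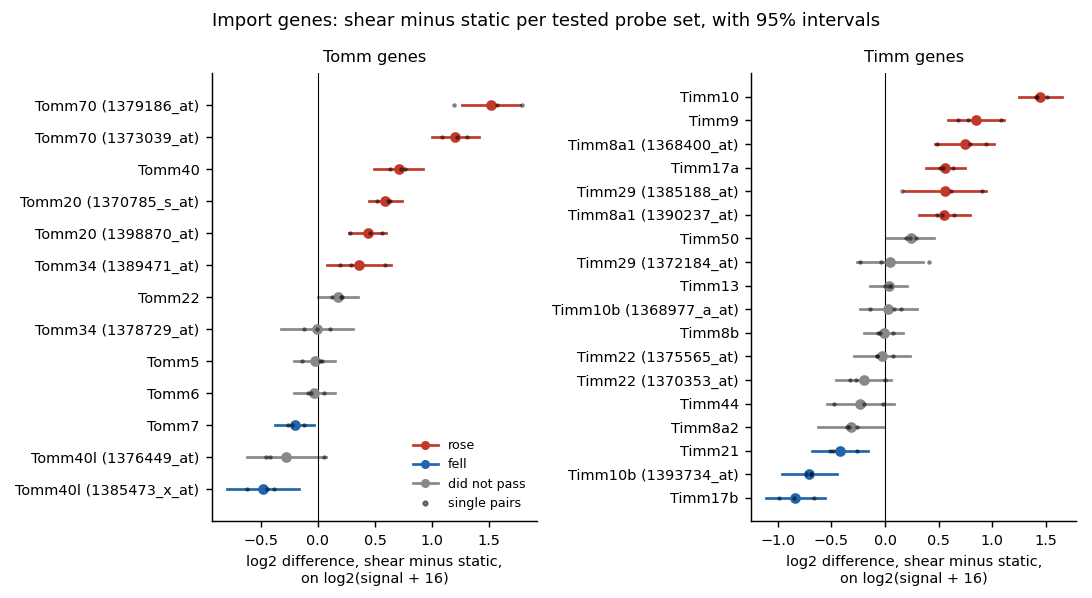
Shear minus static differences on the log2(signal + 16) scale for the 13 Tomm and 18 Timm probe sets tested. Large dots and lines are limma estimates with 95% intervals, small dots are the 3 pairs, and colours show the call. Tomm70 (1.51 and 1.20) and Timm10 (1.45) stand at the top, and Timm17b (-0.84) and 1 of 2 Timm10b probe sets (-0.71) at the bottom.

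The promoter windows of Tomm70 and Timm10, the members that rose most, are shown with that of Mrps26, a ribosome gene that fell, because all 3 hold the core motif of ETS factors, a family whose member Gabpa is known for its sites in genes for mitochondrial proteins. Each window runs from 250 bases before to 50 after the annotated start (RefSeq, build GRCr8), 5′ to 3′ on the strand of the gene. Capitals mark CCGGAAG or its reverse complement.
Tomm70 (chr11:56886227-56886526, minus strand): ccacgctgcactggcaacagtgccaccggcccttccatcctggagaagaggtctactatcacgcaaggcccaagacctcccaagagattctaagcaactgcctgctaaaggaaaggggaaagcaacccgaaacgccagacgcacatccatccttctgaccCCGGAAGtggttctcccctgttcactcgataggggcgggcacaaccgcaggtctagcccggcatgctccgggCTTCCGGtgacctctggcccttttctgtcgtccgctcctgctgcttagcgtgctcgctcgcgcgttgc
Timm10 (chr3:90314889-90315188, plus strand): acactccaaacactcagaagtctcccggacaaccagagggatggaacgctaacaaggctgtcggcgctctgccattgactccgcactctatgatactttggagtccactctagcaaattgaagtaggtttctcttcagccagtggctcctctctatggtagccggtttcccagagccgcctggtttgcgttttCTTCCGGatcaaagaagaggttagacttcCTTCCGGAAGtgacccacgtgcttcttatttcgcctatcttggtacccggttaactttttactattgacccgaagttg
Mrps26 (chr3:138222074-138222373, plus strand): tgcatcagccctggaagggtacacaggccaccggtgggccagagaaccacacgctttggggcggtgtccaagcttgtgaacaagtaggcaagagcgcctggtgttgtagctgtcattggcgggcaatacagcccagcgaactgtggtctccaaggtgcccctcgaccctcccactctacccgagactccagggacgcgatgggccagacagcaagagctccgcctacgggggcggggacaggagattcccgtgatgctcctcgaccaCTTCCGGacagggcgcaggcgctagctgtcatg
The Tomm70 window held the ETS letters at 2 places, whose first bases lay at -90 and -18 from the start. The Timm10 window held them at 3, at -57, -28 and -25, of which the last pair overlap. The Mrps26 window held them at 18, after the start.

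Of the 96 member genes 80 were matched to such a window, and of 6 motifs searched on both strands the 3 of at most 8 letters are given here. The ETS letters CCGGAAG stood in 33.8% of the members' windows, against 17.9% of those of 9345 genes tested on the arrays, a comparison added after the motif shares were seen, and 9.22% of all 27457 windows. They stood in 33.9% of the windows of ribosome genes and 33.3% of those of import genes. They also stood in 36.4% of the windows of members that rose, 28.0% of those that fell and 36.4% of those that did not pass. The E-box CACGTG stood in 11.2% of the members' windows, against 9.68% of those of tested genes and 6.65% of all. The cyclic AMP response element TGACGTCA stood in 1.25%, against 3.27% of those of tested genes and 1.91% of all. These are matches of letters with no test, and the arrays do not measure binding.

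The rest of the TOM complex split by subunit. Tomm40, the channel of the outer membrane, had 404, 355 and 380.3 in sheared cultures, against 255, 209 and 218 in static cultures. All sheared values were above all static ones, with a difference of 0.71 (0.49 to 0.92, adjusted p = 0.00047). Tomm20, the receptor for precursors with a cleavable presequence, had 2206, 2717 and 2607 in sheared cultures, against 1808, 1978 and 1759.5 in static cultures. It rose by 0.43 (0.27 to 0.59, adjusted p = 0.0012), and by 0.59 on a second probe set whose name ends in _s_at, the array's mark for probes shared among transcripts. Tomm34, a cytosolic co-chaperone in spite of its name, rose by 0.36 (adjusted p = 0.035) on its brighter probe set, from 153 ± 13.6 in sheared and 116 ± 10.6 in static cultures (SD, n = 3), and a dim second one gave -0.01. The call of Tomm34 was lost without the filter and without pair 2 or pair 3.

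Among the remaining TOM subunits the values were closer together. Tomm22, the central receptor, averaged 778 ± 64.5 in sheared and 685 ± 37.0 in static cultures (SD, n = 3) and did not pass (0.18, adjusted p = 0.084). After median centring (0.33) it passed, as it did without pair 1 (0.17). The small subunits Tomm5 (-0.03), Tomm6 (-0.03) and Tomm7 help to hold the complex together. Tomm5 and Tomm6 did not pass, with 95% intervals of -0.21 to 0.15 for both. Tomm7 fell by 0.20 (adjusted p = 0.048), with 862, 817 and 861 in sheared and 940.2, 983 and 1008 in static cultures. That call was lost after median centring (-0.05), at a pseudocount of 64, without the intensity trend, without the filter and without pair 2 or pair 3. Tomm40l, a paralogue of Tomm40, was dim, at 15.2 ± 4.32 in sheared and 21.7 ± 3.96 in static cultures (SD, n = 3), and did not pass (-0.27). Its second, dimmer probe set fell by 0.48 (adjusted p = 0.018), a call lost after median centring and without pair 3.

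The small TIM genes other than Timm9 and Timm10 did not share one course. Timm8a1, whose product forms a ring with that of Timm13, rose on both probe sets, by 0.74 (0.47 to 1.02, adjusted p = 0.0012) and 0.55 (adjusted p = 0.0027). Its brighter probe set had 284, 305 and 308 in sheared cultures, against 198, 151 and 171 in static cultures. Timm13 itself had 802, 791 and 785 in sheared cultures, against 779, 759.5 and 783 in static cultures. These values lay almost together, and the difference of 0.03 (-0.14 to 0.20) did not pass. Timm8b did not pass either (-0.01, interval -0.19 to 0.17). Timm8a2 was near the floor, at 4.70 ± 0.781 in sheared and 9.80 ± 0.265 in static cultures (SD, n = 3; -0.32, adjusted p = 0.079).

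In the TIM22 complex, which inserts carriers into the inner membrane, none of Timm22, Timm10b and Timm29 passed on its brightest probe set. The channel Timm22 averaged 190 ± 2.90 in sheared and 222 ± 28.7 in static cultures (SD, n = 3) and did not pass on either probe set (-0.20 and -0.03). Timm10b, which docks the small TIM ring on the complex, gave 2 answers. Its brighter probe set did not pass (0.03), while the other had 43.1, 45.6 and 36.8 in sheared cultures, against 82.7, 83.5 and 69.1 in static cultures, and fell by 0.71 (adjusted p = 0.0011). As a mean over both probe sets Timm10b passed as fallen (-0.34, adjusted p = 0.020). Timm29, known as a subunit of this complex in human cells, did not pass on its brighter probe set (0.05), with differences of 0.41, -0.04 and -0.23 in pairs 1 to 3. Its dim second probe set rose by 0.56 (adjusted p = 0.022), but did not pass without pair 1 (0.38, adjusted p = 0.056), without pair 2 or without the filter.

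In the TIM23 complex, the 2 alternative core subunits went opposite ways. Timm23 itself was not among the members, so the complex is described here without it. Timm17a had 799, 739 and 740.0 in sheared cultures, against 555, 502 and 472 in static cultures, a rise of 0.56 (0.38 to 0.75, adjusted p = 0.00065). Timm17b had 62.0, 54.7 and 70.2 in sheared cultures, against 125, 125 and 121 in static cultures, a fall of 0.84 on the log2 scale (-1.11 to -0.56, adjusted p = 0.00063). In neither did the groups overlap, and the 3 pairs of Timm17a (0.51 to 0.63) lay wholly above those of Timm17b (-0.99 to -0.67). Timm21, which links the complex to TOM and the respiratory chain, fell by 0.42 (adjusted p = 0.015), from 85.6 ± 5.09 in sheared and 120 ± 9.36 in static cultures (SD, n = 3). The call of Timm21 was lost after median centring (-0.27, adjusted p = 0.070) and without pair 2 or pair 3. The receptor Timm50 (0.24, adjusted p = 0.063) and the motor anchor Timm44 (-0.23, adjusted p = 0.19) did not pass; Timm50 passed after median centring (0.39) and without pair 1.

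Among Mrpl genes, the large subunit list, 11 of 46 rose and 16 fell by their brightest probe set, shares of 23.9% and 34.8% near the background of 27.8% and 30.1% of genes. After median centring 14 rose and 11 fell, so the balance turned. It also turned over all 11248 genes, from 3131 risen and 3385 fallen to 3934 risen and 2606 fallen. The sizes ran from -1.42 to 0.75, and no Mrpl or Mrps gene rose by 1 or more on the log2 scale. The gene that fell most was Mrpl55, with 305, 197 and 168 in sheared cultures, against 617, 598 and 609 in static cultures. Shear culture 1 was the highest of the sheared and still far below every static culture, and the difference was -1.42 (-1.77 to -1.08, adjusted p = 0.00014).

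Mrpl14, the counterpart of a conserved bacterial protein at the subunit interface, had 42.6, 39.7 and 38.1 in sheared cultures, against 109, 99.7 and 121 in static cultures. It fell by 1.17 on the log2 scale (-1.44 to -0.89, adjusted p = 0.00013), with a tight sheared group far below the static one. Mrpl48 fell by 1.04 (adjusted p = 0.00014) and Mrpl13 by 1.00 (adjusted p = 8.4e-05). Mrpl13 averaged 254 ± 22.5 in sheared and 523 ± 4.16 in static cultures (SD, n = 3). Mrpl52 fell on both probe sets, by 0.71 and 0.81, and Mrpl36, the counterpart of the smallest bacterial large subunit protein, fell by 0.65, with 153, 149 and 158 in sheared cultures, against 248, 243 and 261 in static cultures.

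The Mrpl gene that rose most was Mrpl47, with 188, 181 and 158 in sheared cultures, against 95.4, 103 and 94.0 in static cultures. It rose by 0.75 (0.50 to 1.00, adjusted p = 0.00071), and every sheared value exceeded every static one. Mrpl3, a protein that in bacteria reaches towards the catalytic centre, had 649, 682 and 624 in sheared cultures, against 353, 387 and 433 in static cultures, a rise of 0.72 (0.49 to 0.94, adjusted p = 0.00053). Mrpl41, a subunit with no bacterial counterpart, rose by 0.69 (adjusted p = 0.00022), from 1001 ± 39.0 in sheared and 613 ± 25.7 in static cultures (SD, n = 3). Mrpl35 (0.56) and Mrpl57 (0.56) rose too, although a second Mrpl57 probe set did not pass (0.06).

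Mrpl40 was the only member gene with 1 probe set risen and another fallen. The brighter had 141, 156 and 155 in sheared cultures, against 98.9, 94.6 and 99.7 in static cultures, and rose by 0.55 (adjusted p = 0.0034). The dimmer had 24.0, 22.0 and 22.1 in sheared cultures, against 43.6, 43.9 and 49.2 in static cultures, and fell by 0.67 on the log2 scale (adjusted p = 0.0022). Neither probe set overlapped between the groups, and as a mean over both Mrpl40 did not pass (-0.06, adjusted p = 0.60). The direction of Mrpl40 is therefore not settled here.

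**Figure D2:**
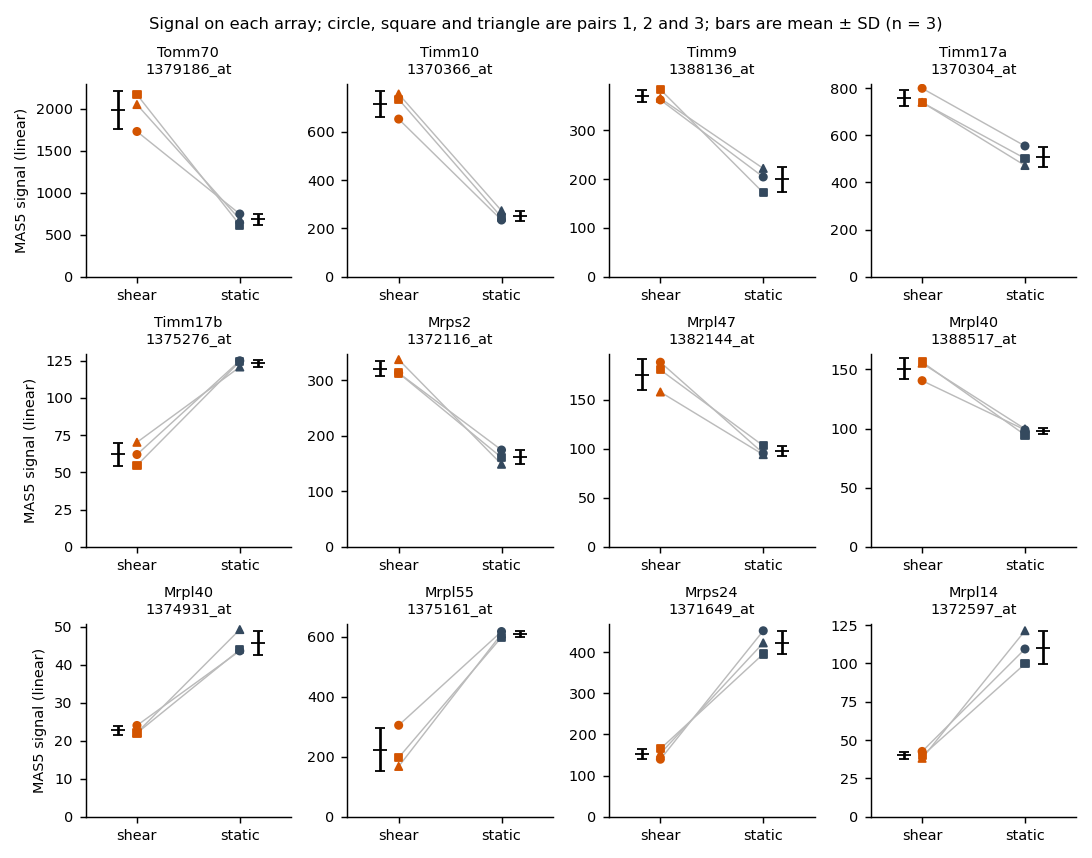
MAS5 signal (linear axes that start at 0) of 12 probe sets on each array, sheared cultures left and static right, with lines joining the 3 pairs and bars for mean ± SD (n = 3). No probe set shown overlaps between the groups. Over all probe sets tested, sheared arrays lay wholly above for 27.1% and wholly below for 32.9%. The Mrpl40 panels go opposite ways, as do Timm17a and Timm17b.

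Several of the brightest ribosome probe sets moved little. The 6 with the highest mean signal were those of Mrpl17, Mrpl33, Mrpl41, Mrpl27, Mrpl12 and Mrps17. Mrpl33 (-0.03, interval -0.21 to 0.15) and Mrpl27 (-0.02, interval -0.20 to 0.16) did not pass. Mrpl17 fell by 0.22 (adjusted p = 0.030), Mrpl12, which in human cells was also described as a partner of the mitochondrial RNA polymerase, by 0.22 (adjusted p = 0.048) and Mrps17 by 0.27 (adjusted p = 0.025). None of these 3 passed after median centring (-0.07, -0.07 and -0.12), in the fit with no intensity trend, or when pair 2 or pair 3 was left out, and Mrpl12 also did not pass without the replicate block (adjusted p = 0.056).

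Among Mrps genes, the small subunit list, 8 of 27 rose and 11 fell, beside the background of 27.8% and 30.1% of genes. After median centring 9 rose and 8 fell, beside 3934 risen and 2606 fallen of all 11248 genes. Mrps24 had 140, 165 and 154 in sheared cultures, against 452, 395 and 422 in static cultures, and fell by 1.38 on the log2 scale (-1.64 to -1.12, adjusted p = 4.0e-05). A second Mrps24 probe set was near the floor and did not pass (0.11). Mrps14, the counterpart of a bacterial protein in the head of the small subunit, fell on both probe sets but by different amounts. Its brighter probe set had 361, 368 and 369 in sheared cultures, against 578, 525 and 546 in static cultures, a fall of 0.57 on the log2 scale (adjusted p = 0.0010), and the other fell by 1.36 (adjusted p = 4.0e-05). Mrps28 (-0.85), Mrps26 (-0.82), Mrps21 (-0.63) and Mrps33 (-0.60) also fell, with no overlap between sheared and static arrays in any of the 4. These 4 were named for the size of their falls, and 33.8% of all 11248 genes tested lay wholly below.

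The risen Mrps genes were led by Mrps2 and Mrps18b. Mrps2, the counterpart of a bacterial protein of the small subunit, had 313, 313 and 337 in sheared cultures, against 174, 161 and 149 in static cultures, and rose by 0.93 (0.68 to 1.18, adjusted p = 0.00023). Its 2 dimmer probe sets gave 0.35 (adjusted p = 0.032, lost without the filter and without pair 2 or pair 3) and 0.31 (adjusted p = 0.11). Mrps18b had 570.4, 559 and 517 in sheared cultures, against 309, 256 and 283 in static cultures, a rise of 0.92 (0.70 to 1.14, adjusted p = 0.00013). It is 1 of 3 paralogues of 1 bacterial protein, and the others were not alike: Mrps18a rose by 0.45 (adjusted p = 0.0058, lost without pair 2) and Mrps18c did not pass (-0.15, interval -0.46 to 0.16).

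Mrps31 rose by 0.72 (adjusted p = 0.0021), with 169, 166 and 136 in sheared cultures, against 81.0, 89.9 and 95.7 in static cultures. Mrps30 rose by 0.53 (adjusted p = 0.0030) and Mrps35 by 0.50 (adjusted p = 0.0071). In mammalian structures Mrps30 and Mrps18a lie in the large subunit in spite of their names, so a split by name is not quite a split by subunit.

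**Figure D3:**
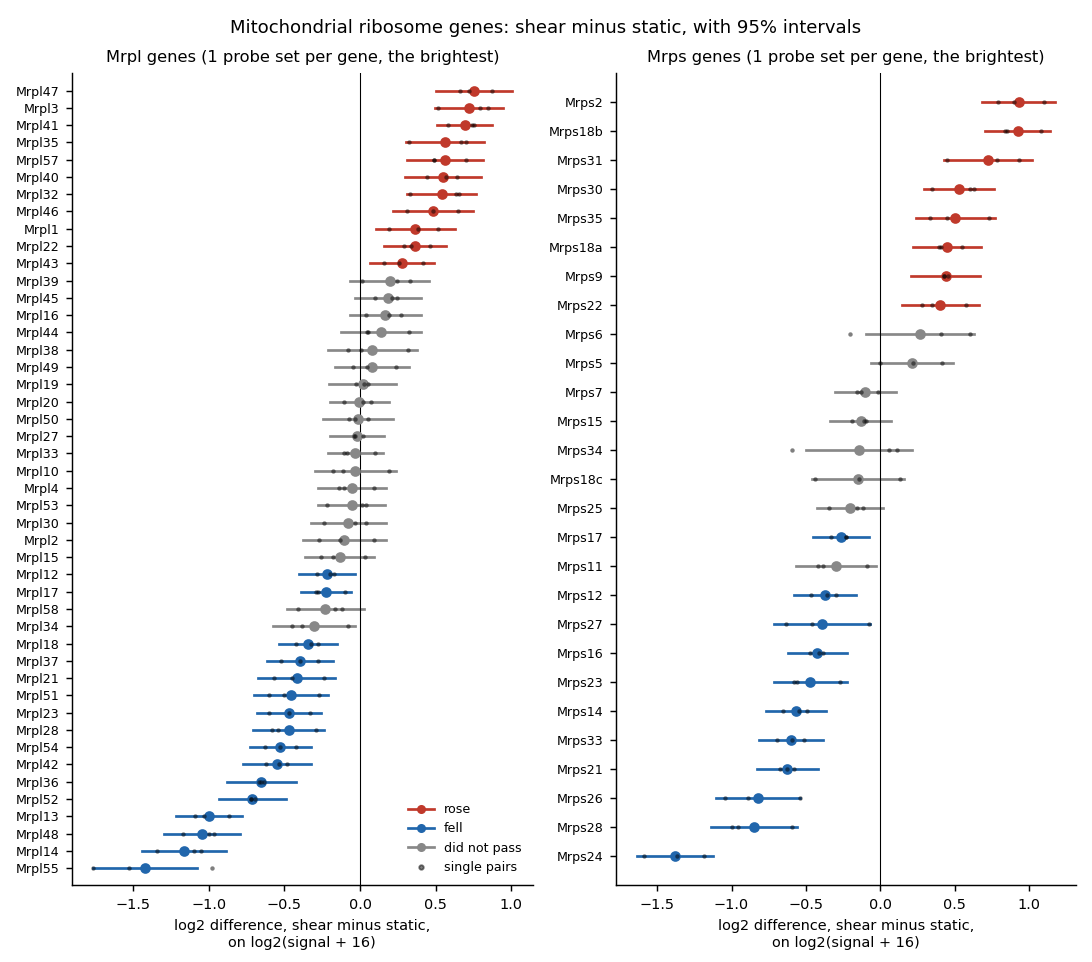
Shear minus static differences on the log2(signal + 16) scale for 46 Mrpl and 27 Mrps genes, each by its brightest probe set. Large dots and lines are limma estimates with 95% intervals, small dots the 3 pairs, and colours the call. Both panels run through 0, with 11 risen and 16 fallen Mrpl genes and 8 risen and 11 fallen Mrps genes.

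Where a gene had several tested probe sets they often differed in call. Of 24 such genes, 3 rose on all (Tomm70, Tomm20 and Timm8a1), 3 fell on all (Mrpl52, Mrps14 and Mrps27) and 4 passed on none. In 13 only some probe sets passed, all in 1 direction, and Mrpl40 had both. Probe sets of 1 gene can read different transcript ends, so these differences are given as measured. The 4 probe sets of Mrpl51 ranged from -0.46 to -0.26, and 3 of them passed as fallen, but none of the 3 without pair 2 or pair 3. The brightest Mrps27 probe set lost its call after median centring (-0.24), among other settings.

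The other genes of mitochondrial translation and import came from lists chosen with earlier results of these data known, but not picked for how their members moved. Among the genes named from them, Gadd45gip1, Nsun4, Tfb1m, Mtg1, Mtif2, Hspa9, Hspd1, Hspe1, Gabpb1, Polrmt, Nrf1 and Gabpa, and also Pprc1, Mrps18c, Mrps27 and Mrpl51, were chosen after their values were seen. The 5 ribosome proteins that carry other names all fell: Ptcd3, a pentatricopeptide protein of the small subunit (-0.59), Aurkaip1 (-0.43), Dap3 (-0.39), Gadd45gip1 (-0.30) and Chchd1 (-0.30). Of all 11248 genes tested 30.1% fell. Only 2 of the 5 were still called after median centring, without pair 2 or without pair 3. In these settings 2606, 2611 and 2506 of all 11248 genes fell, in that order. The median of the 5 was -0.39, beside -0.05 for all genes tested.

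Factors that assemble the mitochondrial ribosome had 11 of 18 risen and 2 fallen, against a background of 27.8% and 30.1% of genes, with a median of 0.35. Fastkd2, which binds the large ribosomal RNA, had 263, 274 and 256 in sheared cultures, against 86.3, 69.5 and 65.9 in static cultures. It rose by 1.65 (1.38 to 1.91, adjusted p = 2.0e-05), more than any member of the ribosome itself. Mterf4 (1.13) and its partner Nsun4 (0.81), which methylates the small ribosomal RNA, rose together with Ngrn (0.94), and Malsu1 (0.66), which joins the large subunit during its assembly. A second, dimmer Nsun4 probe set did not pass (0.22, adjusted p = 0.17). The 2 that fell were Tfb1m, which methylates the small ribosomal RNA (-1.11, adjusted p = 0.0022), and Mtg1, a GTPase of large subunit assembly, which fell by 1.00 (adjusted p = 0.0028). Tfb1m had 77.5, 51.4 and 48.7 in sheared cultures, against 113, 176 and 151 in static cultures. Without pair 2 or pair 3, 7 of these 18 genes rose, beside 2385 and 2339 of all 11248 genes, in that order.

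Translation factors had 2 of 14 risen and 3 fallen, against a background of 27.8% and 30.1% of genes, with a median of -0.03. The elongation factors split: Gfm1, which moves the ribosome along the message, rose by 0.61 (adjusted p = 0.0020), and Tufm, which delivers aminoacyl-tRNA, fell by 0.66 on the log2 scale (adjusted p = 0.00065). Tufm averaged 246 ± 5.60 in sheared and 397 ± 28.1 in static cultures (SD, n = 3). Mtif2, an initiation factor, rose by 0.42 (adjusted p = 0.046), a call lost without the filter, at a pseudocount of 1, without the trend and when any 1 pair was left out. Mtfmt (-0.42), which formylates the initiator tRNA, and Oxa1l (-0.33), which inserts new proteins into the inner membrane, fell. Neither Mtfmt nor Oxa1l passed after median centring. The list then had 3 risen and 1 fallen, beside 3934 risen and 2606 fallen of all 11248 genes.

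Import partners, which work with the TOM and TIM complexes, had 7 of 24 risen and 8 fallen, with a median of -0.14. These shares, 29.2% and 33.3%, are near the background of 27.8% and 30.1% of genes. Hspa9, the Hsp70 of the import motor, had 1816, 1583 and 1478.5 in sheared cultures, against 737, 937 and 949 in static cultures, and rose by 0.89 (0.60 to 1.17, adjusted p = 0.00057). Dnlz, which keeps Hspa9 soluble (1.06, adjusted p = 0.00010), and Grpel2, a nucleotide exchange factor of the motor (0.95, adjusted p = 0.00033), rose with it. Dimmer Hspa9 probe sets rose by 1.09 and 0.82, and another did not pass (0.38, adjusted p = 0.081). Dnajc19, a J-protein of the same motor, fell by 0.77 on the log2 scale (adjusted p = 0.00021), from 340.3 ± 9.30 in sheared and 594 ± 47.9 in static cultures (SD, n = 3). The outer membrane protein Mtch1 fell by 0.84 (adjusted p = 0.00016). The matrix chaperonin pair gave small opposite differences, 0.21 for Hspd1 and -0.20 for Hspe1, and both calls were lost without the trend and without pair 2 or pair 3. After median centring 8 of the 24 rose and 3 fell, without pair 1 7 rose and 13 fell, without pair 2 5 rose and 2 fell, and without pair 3 4 rose and 3 fell. Of all 11248 genes, 3934 rose and 2606 fell after median centring, and 3461 rose and 3934 fell without pair 1. Without pair 2, 2385 rose and 2611 fell, and without pair 3, 2339 rose and 2506 fell.

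By their brightest probe sets, regulators of mitochondrial biogenesis had 6 of 11 tested genes risen and 0 fallen, with a median of 0.49. The background was 27.8% and 30.1% of genes. After median centring 7 rose and 0 fell, beside 3934 risen and 2606 fallen of all 11248 genes. In the limma fit none of these 11 brightest probe sets had a negative difference with an unadjusted p below 0.05 either. Pprc1, a coactivator related to Ppargc1a, did not pass (-0.19, adjusted p = 0.17). Its signals were nevertheless 186, 193 and 206 in sheared cultures, wholly below 239, 219 and 216 in static cultures. Esrra, a nuclear receptor for genes of energy metabolism, had 112, 107 and 131 in sheared cultures, against 43.6, 41.7 and 45.6 in static cultures, and rose by 1.15 (0.89 to 1.41, adjusted p = 0.00010). Tfam, which packages mitochondrial DNA, had 338, 399 and 395 in sheared cultures, against 205, 219 and 214 in static cultures, a rise of 0.78 (adjusted p = 0.00032). The mitochondrial transcription factor Tfb2m (0.93), the RNA polymerase Polrmt (0.49, a call lost without pair 2), Myc (0.86) and Gabpb1 (0.78), a partner subunit of the ETS factor Gabpa, rose too. Nrf1 (0.12) and Gabpa (-0.29) did not pass on their brightest probe sets. A dimmer Nrf1 probe set fell (-0.34, adjusted p = 0.041), and another did not pass (-0.09). The call of that fallen Nrf1 probe set was lost without the replicate block, after quantile normalization and after median centring. It was also lost without the filter and without pair 2 or pair 3. Ppargc1a was below the filter, at 5.57 in sheared and 6.87 in static cultures on average.

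**Figure D4:**
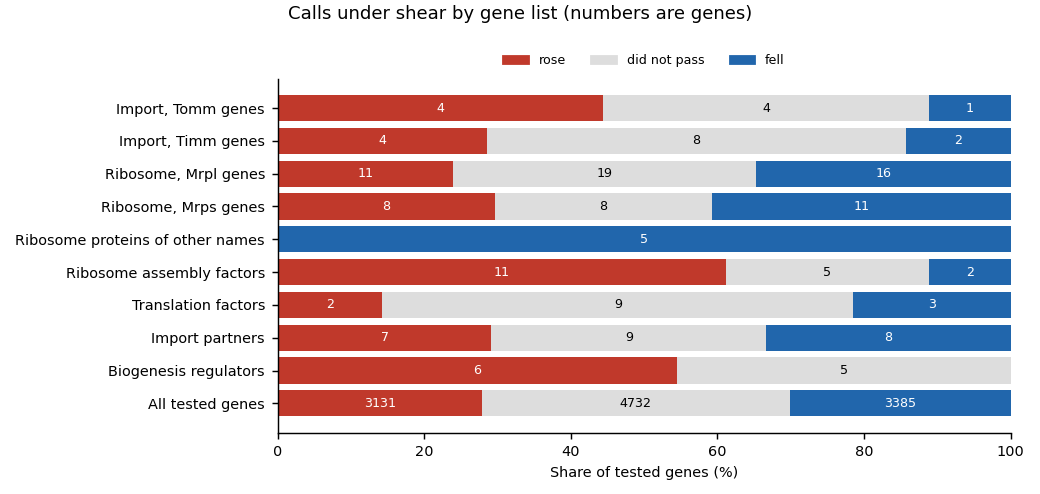
Share of tested genes that rose, did not pass or fell under shear for the 4 member lists, 5 related lists and all 11248 genes tested, with the number of genes printed in each bar. Ribosome assembly factors (11 of 18) and biogenesis regulators (6 of 11) have the largest shares risen among the lists shown, and the 5 ribosome proteins of other names all fell.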

How the data were processed

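Affymetrix rat arrays were hybridised with one-cycle cRNA from 3 sheared and 3 static cultures, per the labels' protocols. The deposited values are MAS5 signal intensities on a linear scale, per the submitters' processing notes, with a 2% trimmed mean near 100 on each array; the MAS5 version and detection calls are not given in the sources used here.

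Of 31099 probe sets, 57 controls were left out. Of the other 31042, 20826 carried 1 symbol in the platform annotation, 436 several and 9780 none. All 129 members were matched by gene ID to RefSeq with no symbol changed. Differences were fitted to log2(signal + 16) with limma 3.58.1 in R 4.3.3 (lmFit, eBayes with intensity trend, two-sided), and each pair had its own term. Probe sets in the lowest 30% by mean (below 4.50 on that scale) were not tested, and p-values were Benjamini-Hochberg adjusted over 21729 probe sets. The series design calls the experiment paired. Deviations from the group means correlated within pairs by 0.071, 0.065 and 0.063. The best partner of every sheared array among the static arrays was the one of its pair. The fit leaves 2 residual degrees of freedom, and the number of arrays limits the precision. Because eBayes borrows variance from the other probe sets, p-values and intervals do not rest on the spread of each probe set alone.

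The probe set with the highest mean stood for a gene. By rule, every Timm and Tomm gene was named. So were the 6 risen and 6 fallen Mrpl and Mrps genes with the largest differences and the same sign in all pairs. Genes with opposed probe sets, the 6 ribosome genes of highest signal and up to 4 genes of smallest p per related list were added. The genes listed above as chosen after their values were seen are outside this rule. Members and lists were chosen with earlier results of these data known. Alternatives were the fit without the block, quantile normalization, median centring, other filters and pseudocounts, no trend, means over probe sets and each pair left out. Python 3.11.15 was used for counts and for letters in promoter windows.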

Additional observations from a re-analysis of the deposited data

Results flagged for a closer look

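One probe set left out of the members carries several symbols in the annotation, of which at least 1 fits the naming rule. Its signals were 1421, 1332 and 1382.5 in sheared cultures, against 1083, 1079.7 and 1064 in static cultures, with means of 1378 ± 44.6 and 1076 ± 10.1 (SD, n = 3). It was looked at because it lies outside the main measurement and was higher in all 3 sheared cultures (0.35 on the log2 scale, limma adjusted p = 0.0028). No gene is named for it.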

How the results depend on the processing

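Counted by probe set, 68 passed among genes named by rule, of which 53 kept their call and 15 lost it under at least 1 alternative. Means over probe sets were fitted by gene, not by probe set. In that fit Mrpl40 did not pass, although both of its probe sets had passed. Genes chosen after their values were seen are not in these counts. Several of them, such as Gadd45gip1, Mtif2, Hspd1 and Hspe1, also lost their call under at least 1 alternative. Without the replicate block 32 member probe sets rose and 43 fell, and 11430 probe sets were called in all. Among probe sets of genes named by rule, Mrpl12 then lost its call and Timm8a2 gained one. After median centring 26 members fell, 2 of them import probe sets, and the medians were 0.014 for ribosome and 0.18 for import probe sets. The import median was 0.11 after quantile normalization and 0.18 with the filter of 50%. With 1 pair left out in turn, 22 to 36 members rose and 21 to 45 fell. Of the ribosome probe sets 12 to 23 rose and 19 to 40 fell (median -0.171 to -0.075), and of the import probe sets 10 to 13 rose and 2 to 5 fell (median 0.03 to 0.05). Over all probe sets 8441 to 13009 were called. Leaving out a pair leaves 1 residual degree of freedom. As a mean over probe sets Mrpl40 gave -0.059 (adjusted p = 0.60) and Timm10b -0.34 (adjusted p = 0.020), since their probe sets differ in sign or size. Where no cause is named, the cause was not tested. Dim probe sets, such as those of Timm8a2 and Tomm40l, have differences shrunk by the pseudocount.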
